A study of Mus musculus with 104 samples.

Results

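Genes of the mitochondrial respiratory chain and of ATP synthase were followed through mouse monocytes, liver macrophages and cultured macrophages. They were chosen by name, as every gene symbol that starts with Nduf, Uqcr, Cox4i, Cox5, Cox6, Cox7, Cox8 or Atp5, together with Cyc1, Cycs, Sdha, Sdhb, Sdhc and Sdhd, leaving out symbols that contain -ps. The rule itself uses no measured value, but it was set with earlier results of these data known. The rule found 94 of the 24940 genes listed in each of 8 expression tables. By the known place of their products these are 36 subunits of complex I, 8 assembly factors of complex I (Ndufaf genes), 4 subunits of complex II, 9 of complex III, 19 of complex IV and 15 of ATP synthase. Cytochrome c (Cycs), the supercomplex assembly factor Cox7a2l and the coupling factor Atp5s make up the rest.

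Complex I oxidises NADH and complex II, succinate dehydrogenase, oxidises succinate, and both pass electrons to ubiquinone. Complex III hands them to cytochrome c, and complex IV, cytochrome c oxidase, passes them to oxygen. Complexes I, III and IV pump protons while doing so, and ATP synthase uses the gradient to make ATP. Macrophages are known for shifting between this chain and glycolysis as they change their activation state.

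RNA sequencing was made of 104 libraries in 47 groups of 2 to 4. The study follows how monocytes of the blood turn into Kupffer cells, macrophages that live in liver sinusoids, and tests the niche signals DLL4 (a Notch ligand), TGF-beta and sterol ligands of the liver X receptor. In the niche table, Ly6C-high blood monocytes of C57BL/6J mice (4 libraries, the fourth titled as a pool) stand beside repopulating liver macrophages of Clec4f-cre/Rosa26iDTR mice collected 12, 24, 48, 72, 168 and 336 h after diphtheria toxin (2, 3, 2, 2, 3 and 3 libraries) and Kupffer cells of such mice given PBS (3 libraries). Clec4f drives Cre in Kupffer cells, so the toxin empties their niche, and the macrophages that refill it are a mixture whose share of surviving cells is not known from the labels. A second table holds TIM4+ Kupffer cells of Nr1h3 flox/flox mice, TIM4+ and TIM4- Kupffer cells of Nr1h3 flox/flox Clec4f-cre +/- mice, and bone marrow-derived macrophages (BMDMs) of Nr1h3 WT and Nr1h3 KO mice cultured for 7 days, with 2 libraries each. Nr1h3 encodes the liver X receptor alpha. Another holds C57BL/6J liver cells in 3 sorts, STAB2 low, intermediate and high (2 libraries each), STAB2 being an endocytic receptor that marks sinusoidal endothelium. Kupffer cells of Smad4 flox/flox mice (2 libraries) and of Smad4 flox/flox Clec4f-cre +/- mice (3 TIM4+ and 2 TIM4-) make up a further table. The cultured series had 2 libraries for each condition. BMDMs were grown for 4 days from Smad4 flox/flox mice or from mice with Smad4 deleted. They stood without ligand or were treated for 24 h with DLL4, TGF-beta, both, or DLL4 and the gamma-secretase inhibitor DAPT. C57BL/6J BMDMs had no ligand, DLL4, DLL4 with TGF-beta, or both of these with the sterol DMHCA. These were read after 24 h (4 days of culture) or 72 h (6 days). DMHCA alone was given for 24 h only. C57BL/6J bone marrow monocytes had no ligand, DLL4, desmosterol, DLL4 with TGF-beta, or both of these with desmosterol. They were treated for 48 h (2 days of culture). The last table holds repopulating macrophages of mice labelled C57BL/6J and, in the library names, fasted, collected 24 h after diphtheria toxin and treated in the animal with LY411575, an inhibitor of gamma-secretase (2 control and 3 treated libraries), or with antibodies to DLL1 and DLL4 (2 control and 4 treated libraries).

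Values are TPM, a transcript level scaled for transcript length and library size, and each table was tested alone. Where a group's values are listed, its libraries keep the same order throughout, and they are called the first, the second or the third in that order. A library held 7830287 to 27776730 reads, recovered from the TPM. Smad4 stood at 33.4 and 35.7 TPM in control Kupffer cells against 13.7 to 21.5 TPM in deleted ones, and at 20.4 to 26.5 TPM against 8.52 to 11.3 TPM in BMDMs. Nr1h3 stood at 340.7 to 422 TPM in Kupffer cells labelled Nr1h3 flox/flox Clec4f-cre +/- and at 393 and 409 TPM in their controls, and values summed over all exons cannot show the loss of part of a gene. These cells are therefore named by their label below. Summed over 10 Kupffer cell markers, TPM ran from 8.53 to 12.8 in blood monocytes to 17950 to 19650 in Kupffer cells of the niche table. Hepatocyte markers summed to 1845 to 8337 TPM in those Kupffer cells against 207 to 228 TPM in monocytes, and erythroid markers to 2321 to 9399 TPM in monocytes against at most 199 TPM in Kupffer cells. The part of such cells in the differences below was not tested. In bulk RNA, fewer cells of a type and less RNA per cell cannot be told apart.

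Of the 94 genes, 78 to 82 per table reached 4 TPM in at least 2 libraries and were tested. Per transcript length the most abundant were Atp5b, the catalytic beta subunit of ATP synthase, and Cox4i1, Cox8a and Cox5a of complex IV. Some that were never tested are isoforms or paralogs of other members, of which Cox8b, Cox7b2 and Cox8c are known from heart, muscle or testis. Over all 104 libraries Cox4i2 reached at most 3 TPM, Cox8b 1 TPM, Ndufa4l2 1.29 TPM, Cox7b2 0.21 TPM and Cox8c 0 TPM. Others encode core parts that every respiring cell uses, and these also stood near 0. Cytochrome c itself, Cycs, reached at most 1.68 TPM in any library, Atp5l 1.97 TPM, Atp5g2 1.33 TPM and Cox7c 3.31 TPM. In the mouse transcript set, 50-base windows that recur exactly in transcripts of other genes were counted. Their share was 28.5% for Cycs, 84.8% for Atp5l, 87.4% for Atp5g2 and 53% for Cox7c. It was 0% for each of the 5 isoforms or paralogs listed before these. Cycs windows recurred in 76 other genes. The deposited levels of these 4 genes are therefore not read as expression here, and the part of shared sequence in them was not tested. The median share over the 94 genes was 0.363%, and 63 genes stood under 10%. Among genes named below it was 53.8% for Ndufa12, 50.5% for Atp5h, 34% for Atp5o, 32% for Cox5a, 25.9% for Cox5b and 17.7% for Cox7a2l. Exons of 29 genes overlap a gene on the other strand, among them Cox5a with the non-coding Gm26631 and Cox6a2 with Itgad. Because the headers name no strand setting for the counting, reads of such pairs cannot be told apart.

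The promoters of 6 members are printed because the results turn on these genes or, for Cox6a1, because it carries motifs of the family. Each line gives the 250 bases before the transcription start on the gene's strand, from RefSeq on GRCm38.p6, in lower case, with motif matches in capitals. Cox7a2l lies at chr17:83514334-83514583 (minus strand), Ndufa6 at chr15:82354292-82354541 (minus), Ndufaf7 at chr17:78936885-78937134 (plus), Atp5b at chr10:128083057-128083306 (plus), Uqcr11 at chr10:80406822-80407071 (minus) and Cox6a1 at chr5:115348959-115349208 (minus).
Cox7a2l: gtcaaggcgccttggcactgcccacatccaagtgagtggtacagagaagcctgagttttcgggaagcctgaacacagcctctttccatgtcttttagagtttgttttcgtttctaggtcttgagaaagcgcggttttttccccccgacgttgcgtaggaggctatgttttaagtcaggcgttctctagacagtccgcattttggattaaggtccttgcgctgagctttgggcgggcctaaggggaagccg
Ndufa6: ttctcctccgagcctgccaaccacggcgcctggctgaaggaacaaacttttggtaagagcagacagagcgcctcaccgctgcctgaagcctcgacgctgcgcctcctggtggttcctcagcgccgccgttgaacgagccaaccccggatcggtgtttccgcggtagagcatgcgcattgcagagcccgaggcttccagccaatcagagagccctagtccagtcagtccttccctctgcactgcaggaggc
Ndufaf7: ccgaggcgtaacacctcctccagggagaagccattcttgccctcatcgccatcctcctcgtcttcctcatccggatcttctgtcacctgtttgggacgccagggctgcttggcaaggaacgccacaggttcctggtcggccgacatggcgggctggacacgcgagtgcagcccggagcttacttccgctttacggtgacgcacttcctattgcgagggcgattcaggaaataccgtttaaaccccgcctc
Atp5b: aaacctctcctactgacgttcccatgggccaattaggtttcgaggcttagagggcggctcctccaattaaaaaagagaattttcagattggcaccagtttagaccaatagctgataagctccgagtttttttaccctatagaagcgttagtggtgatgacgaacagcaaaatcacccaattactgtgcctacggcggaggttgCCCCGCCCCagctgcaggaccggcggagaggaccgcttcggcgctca
Uqcr11: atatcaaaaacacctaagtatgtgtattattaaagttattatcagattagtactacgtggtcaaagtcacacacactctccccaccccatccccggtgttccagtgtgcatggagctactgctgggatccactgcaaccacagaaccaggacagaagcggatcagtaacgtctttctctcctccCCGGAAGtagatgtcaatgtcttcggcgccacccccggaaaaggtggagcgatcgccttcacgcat
Cox6a1: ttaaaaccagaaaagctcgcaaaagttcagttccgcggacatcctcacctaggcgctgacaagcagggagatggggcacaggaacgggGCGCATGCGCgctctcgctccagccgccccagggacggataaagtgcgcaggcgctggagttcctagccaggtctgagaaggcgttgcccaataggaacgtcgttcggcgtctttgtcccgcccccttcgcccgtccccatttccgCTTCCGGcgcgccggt

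Motifs were searched on both strands from 250 bases before to 50 bases after the start in the 77 members with a promoter in the RefSeq table and in all 27025 genes of that table. The site of NRF1, the nuclear respiratory factor, was found in 9 members (11.7%) and in 1.4% of all genes. Its holders were Atp5g2, Atp5k, Atp5l, Cox6a1, Ndufa11, Ndufa8, Ndufaf4, Ndufaf5 and Uqcrc1. The ETS core CCGGAAG was in 22.1% of members and 9.12% of all genes, and the YY1 core AAGATGGC in 13% and 2.88%. A longer YY1 form that contains this core was in 6.49% and 0.699%. The SP1 box GGGGCGGGG was in 16.9% and 11.6%. The Notch effector RBPJ's GTGGGAA, a motif added after the DLL4 results were seen, was in 6.49% of members and 6.39% of all genes. Members' promoters held a median of 58.7% G and C against 52.7% over all genes. In the printed lines, Cox6a1 holds the NRF1 letters 162 bases and the ETS letters 16 bases before its start, Uqcr11 the ETS letters 66 bases before, and Atp5b the SP1 letters 47 bases before. The other 3 lines hold none of these letters, which says nothing about whether the factors act there. Ndufa6 counts among the holders of the SP1 box through a match within the 50 bases after its start, which are not printed.

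In the emptied niche, respiratory chain transcripts were higher in repopulating macrophages by 12 h than in blood monocytes. They were highest at 48 to 72 h and back near the level of resident Kupffer cells by 168 h. Summed over all 94 genes, blood monocytes had 4927, 5452, 4179 and 5528 TPM, the 12 h libraries 6722 and 7542 TPM, the 24 h libraries 8722, 7574 and 8582 TPM, the 48 h libraries 9737 and 9811 TPM, and the 72 h libraries 9050 and 9606 TPM. The 168 h libraries had 5793, 5895 and 5969 TPM, the 336 h libraries 5551, 5803 and 5617 TPM, and Kupffer cells 5862, 5494 and 5248 TPM. The 48 h and 72 h libraries stand above all others, and those from 168 h on overlap with Kupffer cells or lie just above them.

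**Figure D1:**
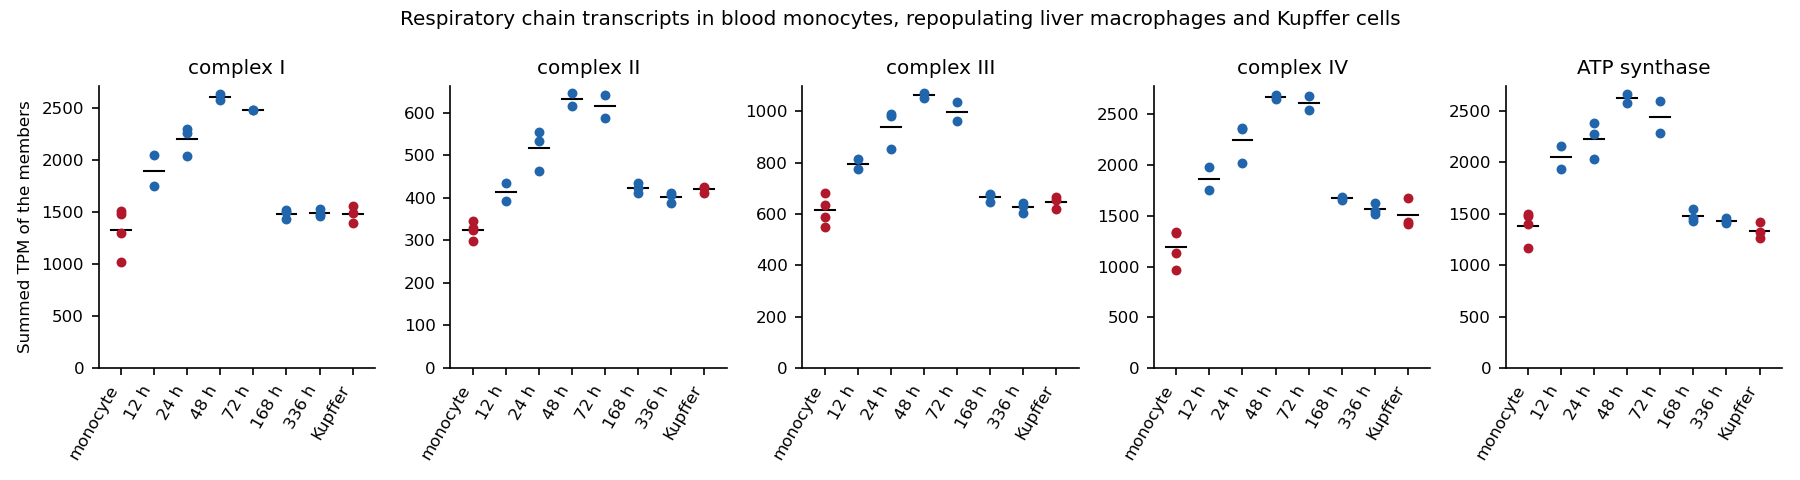
Summed TPM of the members of each complex (vertical axes, starting at 0) in every library of the niche table, by group from blood monocytes through hours after toxin to Kupffer cells; each point is a library. Over all 94 members the 48 h libraries reach 9737 and 9811 TPM and the monocyte libraries 4179 to 5528 TPM.

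At 12 h against blood monocytes, 57 of the 82 tested members rose and 4 fell (limma on log2(TPM + 1), Benjamini-Hochberg adjusted p below 0.05), where 26.9% of all genes tested rose and 35.5% fell. The members' median log2 difference was 0.56, against -0.08 over all genes. Of complex I 24 of 36 subunits rose and 0 fell, and of ATP synthase 11 of 13 rose and 1 fell. Of complex IV 10 of 12 rose and 1 fell, of complex III 6 of 9 rose, and of complex II 3 of 4. Leaving out the second 12 h library gave 41 higher and 3 lower, the fewest over the libraries left out. The rise was larger among short transcripts. The median was 0.70 for the 51 members listed at up to 1000 bases and 0.31 for the 31 longer ones, while over all genes it was 0.27 for short and -0.11 for long ones. The part of transcript length in this and the later differences was not tested. The 12 h cells and the monocytes differ in mouse genotype, toxin and tissue as well, and these cannot be told apart.

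The largest rise was that of Uqcr11, a small subunit of complex III, with 40.1 and 61.8 TPM at 12 h and 14.2, 22.2, 6.78 and 21 TPM in monocytes (log2 difference 1.70 ± 0.31, adjusted p = 0.00013, the value after ± being the standard error). Both 12 h libraries stand above all 4 monocyte libraries. Ndufaf8, an assembly factor of complex I, had 21.3 and 28.3 TPM against 5.53, 12.2, 7.17 and 9.38 TPM (1.47 ± 0.25, adjusted p = 6e-05). The complex I subunits Ndufa5 and Ndufb7 rose by 1.25 and 1.22. Against this direction stood Ndufaf7, a methyltransferase that modifies complex I during its assembly, with 4.77 and 3.13 TPM at 12 h and 29.9, 24.2, 25.8 and 25.5 TPM in monocytes (-2.48 ± 0.21, adjusted p = 2.8e-08). The groups lie far apart, and no later time or Kupffer cell library exceeded 5.66 TPM. Cox7a2l, named above as a supercomplex assembly factor, had 54.4 and 38.3 TPM against 113, 96.7, 121 and 129 TPM (-1.31 ± 0.13, adjusted p = 2.8e-07). Its 12 h values are the lowest of the niche table. Cox6b2, the testis isoform of a complex IV subunit, fell by 1.22 at levels of 2.86 to 12.7 TPM, a call lost without the second 12 h library (adjusted p = 0.10), and Atp5c1, the gamma subunit of ATP synthase, fell by 0.46.

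From 12 to 24 h, 14 members rose and 0 fell, where 15.9% of all genes rose and 11.0% fell, so the share of members that rose (17.1%) was close to that of all genes. Median scaling left 6 higher, and leaving out a library gave 4 (the first 12 h library), 8 (the second), 6 (the third 24 h library), 9 (the first) or 18 (the second). Cox7a2l had 79.9, 97.3 and 87 TPM at 24 h (0.93 ± 0.14, adjusted p = 0.00015), between its 12 h and its monocyte values. This comparison and the last share the 12 h libraries. Sdhd, the membrane anchor of succinate dehydrogenase, had 132, 109 and 122 TPM at 24 h and 85.4 and 80.5 TPM at 12 h (0.54 ± 0.09, adjusted p = 0.0005), without overlap. Cox5a, a subunit of complex IV, rose by 0.59 and Ndufa6 of complex I by 0.47. The Ndufa6 call was lost under median scaling (adjusted p = 0.078) and in 3 of the 5 fits without a library (adjusted p up to 0.11).

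From 24 to 48 h, 7 members rose and 0 fell, beside 8.78% and 3.34% of all genes, and leaving out the second 24 h library or either 48 h library left 1, and the third 24 h library 4. They were Atp5j (0.57) and Atp5o (0.49) of ATP synthase, Ndufv3 and Ndufv1 of complex I, Sdhb and Sdhd of complex II, and Cox5a. Cox5a had 364 and 403 TPM at 48 h and 288, 247 and 314 TPM at 24 h (0.44 ± 0.12, adjusted p = 0.02). The Cox5a call was lost under median scaling (adjusted p = 0.058) and in 3 of the 5 fits without a library (adjusted p up to 0.19). Of the other 6, Atp5o lost its call in 1 of these 5 fits, Sdhd in 2, Sdhb in 3, Atp5j and Ndufv3 in 4 and Ndufv1 in 5. In the same step all 18 tested cell cycle genes of a fixed list rose. Between 48 and 72 h 0 members rose and 1 fell by limma (1.16% and 0.624% of all genes), Atp5h of ATP synthase at -0.58, which no leave-one-out fit kept. At an unadjusted p below 0.05 the counts were 0 and 13, and limma-voom on recovered reads gave 0 and 3.

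Between 72 and 168 h the chain fell as a group. Of the 82 tested members 55 fell and 1 rose, against 21.3% and 12.7% of all genes, and 11 fell and 0 rose at least 2-fold, where 5.79% and 2.37% of all genes did. The median log2 difference was -0.65, against -0.06 over all genes, and -0.58 to -0.70 under the other scalings. Of complex I 26 of 36 subunits fell, of complex II 3 of 4, of complex III 5 of 9, of complex IV 10 of 12 and of ATP synthase 10 of 13. Cox5b, a nuclear subunit of complex IV, had 36.4, 46.9 and 45.4 TPM at 168 h and 124 and 120.0 TPM at 72 h (-1.50 ± 0.22, adjusted p = 7.3e-05). Uqcrq, a subunit of complex III, had 24.5, 28.3 and 25.7 TPM against 69.2 and 66.6 TPM (-1.34 ± 0.20, adjusted p = 8.6e-05). For both genes the groups lie far apart. Ndufs6 of complex I fell by 1.25 and Uqcrc1, a core protein of complex III, by 1.15. Cox6a2, the heart and muscle isoform of a complex IV subunit, had 0.93, 0.913 and 1.83 TPM against 6.94 and 8.2 TPM (-1.97 ± 0.42, adjusted p = 0.0017), while its ubiquitous partner Cox6a1 had 184, 216 and 219.5 TPM against 324 and 359 TPM. Itgad, which overlaps Cox6a2 on the other strand, was at 0.077, 0.152 and 0.07 TPM against 0.479 and 1.878 TPM. The part of shared reads in the fall of Cox6a2 was not tested. The assembly factor Ndufaf4 alone rose (0.59 ± 0.19, adjusted p = 0.027), a call lost in 3 of the 5 fits without a library (adjusted p up to 0.14). The median fell by 0.69 for members of up to 1000 bases and by 0.55 for longer ones, beside -0.24 and -0.05 over all short and long genes. In this step all 18 cell cycle genes also fell, as did 38 of 76 genes of the mitochondrial ribosome, 49 of 73 of the cytosolic ribosome, 10 of 17 of the TCA cycle, 8 of 14 of glycolysis and 11 of 40 other assembly factors of the chain. The part of cell division in the members' fall was not tested.

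By 336 h the members had settled. Against 168 h, limma called 0 higher and 0 lower, beside 0.0440% and 0.0703% of all genes, with 2 and 4 at an unadjusted p below 0.05 and 0 by limma-voom. Against Kupffer cells of PBS-treated mice 5 were higher and 6 lower at 336 h (8.56% and 12.7% of all genes), a split that became 12 and 6 with quantile normalization and 12 and 4 with median scaling. Atp5k, the e subunit of ATP synthase, had 76.7, 80.1 and 76.9 TPM at 336 h and 47.3, 42.5 and 38.8 TPM in Kupffer cells (0.85 ± 0.26, adjusted p = 0.028). Ndufa6 had 56.2, 70.9 and 62.2 TPM against 94.5, 89.2 and 81.2 TPM (-0.48 ± 0.13, adjusted p = 0.015). Neither gene's groups overlap, though the Atp5k call is lost in 5 of the 6 fits without a library (adjusted p 0.066 to 0.076) and the Ndufa6 call without the first 336 h library (adjusted p = 0.077). Cox5b was 0.60 lower, a call lost in 5 of the 6 fits without a library and with no filter (adjusted p up to 0.15), and Cox6b1 of complex IV was 0.40 higher, a call lost in 2 of them. Without 1 library, 3 to 6 were higher and 3 to 8 lower: 3 higher without the second or the third 336 h library or the second Kupffer cell library, and 3 lower without the first 336 h library.

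Comparing the ends of this path, Kupffer cells against blood monocytes, 27 members were higher and 14 lower, where 34.0% and 38.5% of all genes were. The share of members that were higher (32.9%) was thus close to that of all genes, and the share lower (17.1%) was below it. The members' median was 0.20, against -0.06 over all genes. It was 0.28 to 0.32 with quantile normalization, median scaling and limma-voom, and 0.08 without the third monocyte library and 0.11 without the first Kupffer cell library. Quantile normalization and median scaling each gave 38 higher and 11 lower, so the split depends on scaling while its direction did not turn. Leaving out the first Kupffer cell library gave 19 and 13, the fewest higher. All 4 subunits of complex II were higher, by 0.28 to 0.43. Complex I had 10 higher and 5 lower of 36, complex III 4 and 2 of 9, complex IV 4 and 2 of 12, and ATP synthase 2 and 3 of 13. Cox5a had 290.1, 258 and 281 TPM in Kupffer cells and 98.9, 119, 91 and 100.3 TPM in monocytes (1.43 ± 0.10, adjusted p = 4.8e-10). Uqcr11 had 48.9, 37.8 and 33.7 TPM against 14.2, 22.2, 6.78 and 21 TPM (1.37 ± 0.27, adjusted p = 0.0002). Both genes are higher in every Kupffer cell library than in any monocyte library. Atp5c1 had 66.1, 78.9 and 74.1 TPM against 138, 125, 126 and 146 TPM (-0.86 ± 0.09, adjusted p = 9.9e-08), and Ndufaf7 3.44, 4.29 and 5.66 TPM against 29.9, 24.2, 25.8 and 25.5 TPM (-2.34 ± 0.18, adjusted p = 2.4e-09). For these both Kupffer cell and monocyte libraries again do not overlap, in the other direction. Mouse genotype and tissue differ along with cell type here and cannot be told apart.

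**Figure D2:**
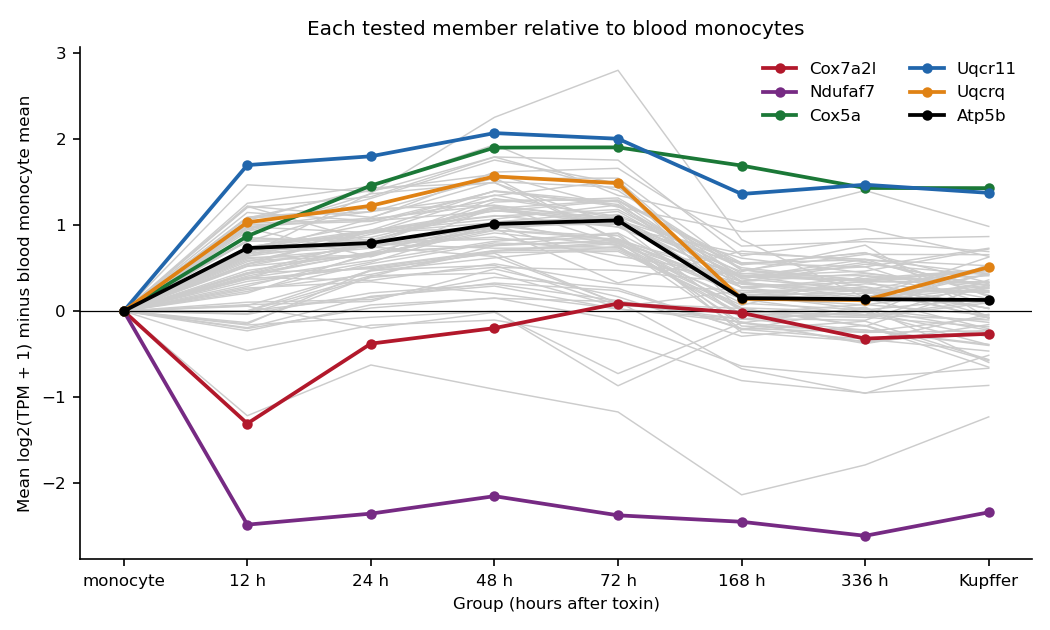
Each line is a tested member in the niche table; the vertical axis is its group mean of log2(TPM + 1) minus that of blood monocytes, and the horizontal axis runs from monocytes through 12 to 336 h after toxin to Kupffer cells. Uqcr11 lies 1.70 above monocytes at 12 h, while Ndufaf7 lies 2.48 and Cox7a2l 1.31 below them.

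Cultured macrophages carried more of these transcripts than Kupffer cells. In the Nr1h3 table, 71 of 81 tested members were lower in TIM4+ Kupffer cells of Nr1h3 flox/flox mice than in Nr1h3 WT BMDMs and 3 were higher, where 38.4% and 43.0% of all genes were. The median was -0.79, against 0.05 over all genes, and 22 members were lower by at least 2-fold and 1 higher, where 15.9% and 20.6% of all genes were. Summed TPM were 5795 and 5392 in Kupffer cells and 9237 and 9312 in BMDMs. Of complex I 32 of 36 subunits were lower, of complex III 8 of 9, of complex IV 10 of 11, of ATP synthase 12 of 13, and of the assembly factors 6. Of the mitochondrial ribosome 68 of 75 genes were lower too, and 14 of 16 cell cycle genes. The median was -0.85 for members of up to 1000 bases and -0.57 for longer ones, beside -0.28 and 0.09 over all genes. Cells from mice and cells grown in dishes differ in more than type, and these cannot be told apart.

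Atp5b had 274 and 267 TPM in Kupffer cells and 650.4 and 664 TPM in BMDMs (-1.28 ± 0.06, adjusted p = 1.5e-07). Cox7b of complex IV had 37.6 and 36.9 TPM against 104 and 105.8 TPM (-1.47 ± 0.05, adjusted p = 2.1e-08), and Ndufa12 of complex I 13.8 and 11.9 TPM against 42.4 and 36.6 TPM (-1.55 ± 0.10, adjusted p = 7.9e-07). Each of these Kupffer cell values is less than any BMDM value. Cox7a2l went the other way, with 80.5 and 88.8 TPM in Kupffer cells and 38.1 and 41.2 TPM in BMDMs (1.08 ± 0.07, adjusted p = 7e-07). Cox5a (0.37) and Ndufs8 of complex I (0.28) were also higher in Kupffer cells. The Ndufs8 call was lost in 3 of the 4 fits without a library, with no filter, with median scaling and with limma-voom (adjusted p up to 0.20), and the Cox5a call was lost without the flox/flox Kupffer cell library 1 and in 1 further fit (adjusted p up to 0.081).

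**Figure D3:**
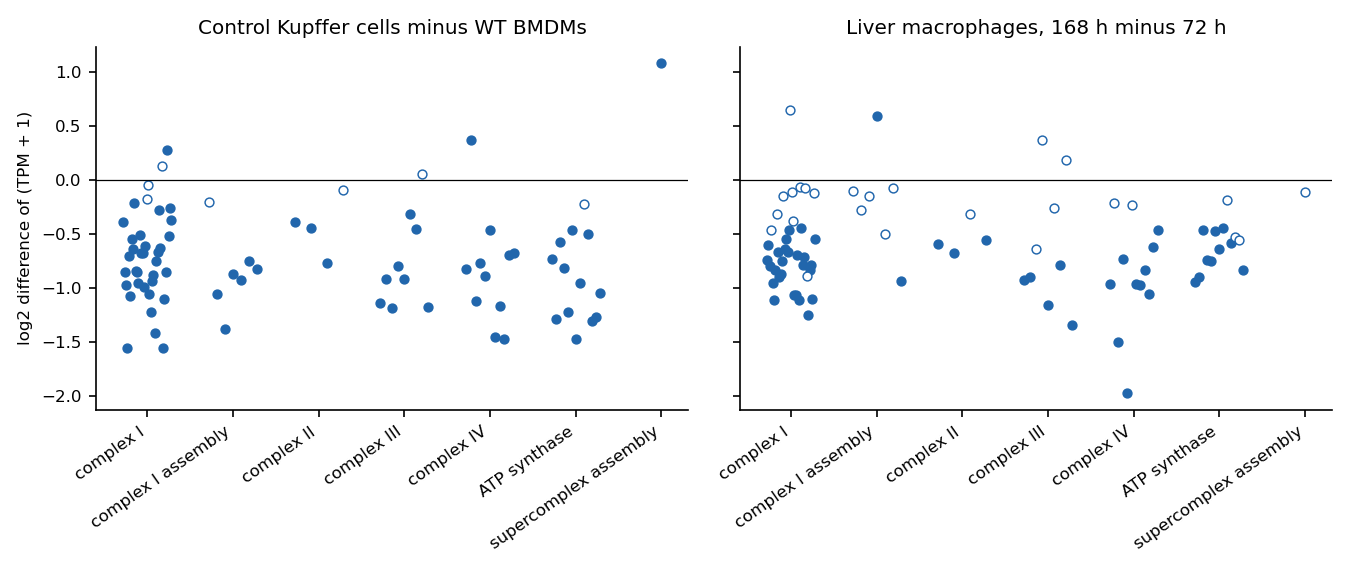
Log2 difference of each tested member, grouped by complex, for Kupffer cells minus BMDMs and for 168 h minus 72 h after toxin; filled points passed an adjusted p of 0.05. Most members lie below 0 in both panels (71 and 55 of them passing), with Cox7a2l at 1.08 among the 3 that pass above 0 in the former.

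Few members differed in the libraries labelled as deleted for Nr1h3. In TIM4+ Kupffer cells labelled Nr1h3 flox/flox Clec4f-cre +/-, 2 members were higher and 7 lower than in their controls, beside 17.2% and 6.28% of all genes. Quantile normalization gave 0 and 8, median scaling 1 and 12 and limma-voom 0 and 4, and without 1 library 0 to 3 and 2 to 6. These were 0 and 2 without the labelled deleted library 2, 3 and 5 without its library 1, and 1 and 4 or 1 and 6 without control library 1 or 2. Cox5a had 219 and 254 TPM in the labelled deleted cells and 397 and 329 TPM in controls (-0.62 ± 0.11, adjusted p = 0.0049), with no overlap. The TIM4- libraries of the same label read 206 and 238 TPM. Ndufa12 fell by 0.34, Cox7a2l fell by 0.26 and Sdhc of complex II rose by 0.20. The Ndufa12 and Sdhc calls were lost in 3 of the 4 fits without a library and with limma-voom (adjusted p = 0.23 and 0.067), and the Cox7a2l call in 2 of these 4 fits. Ndufa12 was also lost with no filter, and Sdhc with quantile normalization and median scaling. Between TIM4- and TIM4+ cells of this label 1 member was higher and 0 lower (0.493% and 1.13% of all genes), Cox7a1, the heart and muscle isoform, at 2.48 and 2.48 TPM against 0.766 and 1.25 TPM. In Nr1h3 KO against WT BMDMs, where Nr1h3 itself was at 8.05 and 8.81 against 41.9 and 43.3 TPM, limma called 0 higher and 0 lower (0.322% and 1.77% of all genes), with 0 and 4 at an unadjusted p below 0.05 and 0 by limma-voom.

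In Kupffer cells of Smad4 flox/flox Clec4f-cre +/- mice against Smad4 flox/flox mice, limma called 0 members higher and 0 lower (0.794% and 0.523% of all genes), with 3 and 0 at an unadjusted p below 0.05 and 0 by limma-voom. Between their TIM4- and TIM4+ cells the counts were likewise 0 and 0 (0% and 0.0503% of all genes), with 1 and 0 unadjusted and 0 by limma-voom. Summed TPM were 4035 and 5058 in controls, 5572, 4358 and 4822 in TIM4+ and 5642 and 4567 in TIM4- libraries, which overlap throughout.

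Markers of sinusoidal endothelium summed to 14100 to 16000 TPM in STAB2-low and 30920 to 32350 TPM in STAB2-high cells. Stab2 itself stood at 116 and 67 TPM in STAB2-low and at 1713 and 1575 TPM in STAB2-high cells. The sorts may therefore differ in their mix of cells, and the part of this in the differences was not tested. Between those ends 16 of 81 members were higher in STAB2-low cells and 2 lower, beside 17.6% and 12.1% of all genes. Leaving out a library gave 8 and 1 (the first STAB2-low library), 3 and 0 (the second), 6 and 0 (the first STAB2-high library) or 17 and 1 (the second). Ndufa8, a complex I subunit, had 120.2 and 108 TPM in low, 75.7 and 67.8 TPM in intermediate and 49.1 and 63.7 TPM in high cells (low minus high 1.01 ± 0.15, adjusted p = 0.0031). Its low and high libraries do not overlap, and the intermediate ones lie between. Atp5k had 27.1 and 26.2 TPM in low and 4.82 and 15.9 TPM in high cells (1.48 ± 0.44, adjusted p = 0.046), but 45.1 and 44.6 TPM in intermediate cells, above both. Its call was lost without either STAB2-low library (adjusted p = 0.13 and 0.14), and with no filter, a pseudocount of 0.25, quantile normalization, median scaling and limma-voom (adjusted p 0.051 to 0.093). Ndufaf7 was lower, with 5.76 and 7.38 TPM against 16.1 and 11.3 TPM (-0.95 ± 0.24, adjusted p = 0.028), a call lost in 3 fits without a library and without the filter on low levels (adjusted p = 0.057). Between intermediate and high cells limma called 0 and 0 (0.00946% and 0% of all genes), with 19 higher and 1 lower unadjusted and 0 by limma-voom.

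DLL4 moved a few members in each direction in Smad4 flox/flox BMDMs. There 8 members rose and 10 fell after 24 h, where 20.6% and 24.4% of all genes did, and median scaling gave 9 and 7. Without the no-ligand libraries 1 and 2 in turn 7 and 3 rose, without the DLL4 libraries 1 and 2 in turn 3 and 4 rose, and 5 fell each time. Cox7a2l had 84.8 and 80.1 TPM with DLL4 and 62.6 and 59.5 TPM without (0.43 ± 0.09, adjusted p = 0.0014). Ndufa6 had 82.5 and 84.5 TPM against 70.8 and 64.2 TPM (0.30 ± 0.11, adjusted p = 0.037), a call lost in 3 of the 4 fits without a library, and Cox5a 333 and 329.8 TPM against 269.9 and 271 TPM (0.29 ± 0.06, adjusted p = 0.0016). The libraries with and without DLL4 do not overlap for any of the 3. Of the 7 assembly factors of complex I tested, 4 were lower and 0 higher. Ndufaf7 had 3.83 and 4.23 TPM against 6.09 and 7.33 TPM (-0.61 ± 0.16, adjusted p = 0.0082), and Ndufaf6, Ndufaf4 and Ndufaf2 fell by 0.63, 0.55 and 0.33. Over the 4 fits without a library the call was lost in 2 for Ndufaf7, 3 for Ndufaf6, 1 for Ndufaf4 and 3 for Ndufaf2 (adjusted p up to 0.30), and Ndufaf2 was also lost with no filter, median scaling and limma-voom. Cyc1, cytochrome c1 of complex III, fell by 0.38 and Atp5b by 0.30. All 18 cell cycle genes and 12 of 14 glycolysis genes fell in the same cells.

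Adding the gamma-secretase inhibitor DAPT to DLL4 raised 10 members and lowered 2 (17.3% and 12.0% of all genes), 6 and 3 with median scaling. Without the DLL4 libraries 1 and 2 in turn 3 and 1 rose and 2 and 1 fell, and without the DAPT libraries 4 and 2 rose and 1 fell. The DLL4 libraries serve both comparisons, so their values enter both with opposite sign. Of the 7 assembly factors tested 4 rose and 0 fell. Ndufaf7 stood at 6 and 6.6 TPM with DAPT (0.54 ± 0.16, adjusted p = 0.026), within the range of cultures without ligand or just below it, a call lost in all 4 fits without a library and with no filter (adjusted p up to 0.13). Cox7a2l, at 72.9 and 75.5 TPM, stood between the cultures with and without DLL4 (-0.15 ± 0.09, adjusted p = 0.21).

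With Smad4 deleted, DLL4 lowered 37 members and raised 1, beside 24.1% and 18.3% of all genes, with a median of -0.22 against -0.04 over all genes. Without 1 library 17 to 42 fell, 17 without the DLL4 library 1, and 0 rose without the no-ligand library 1. The one that rose was again Cox7a2l, with 86.6 and 93.5 TPM against 67.5 and 76.4 TPM (0.32 ± 0.09, adjusted p = 0.009), though the call was lost in 2 of the 4 fits without a library (adjusted p up to 0.10). Ndufaf2, an assembly factor, had 7.45 and 7.31 TPM against 16.6 and 13.6 TPM (-0.94 ± 0.12, adjusted p = 4.6e-05), and Ndufaf7 2.68 and 4.63 TPM against 7.91 and 7.27 TPM (-0.92 ± 0.16, adjusted p = 0.00059). None of these groups overlap. The count is larger than with Smad4 intact, but the difference between genotypes in the DLL4 response passed for 0 members in limma's interaction test (0% and 0.0487% of all genes higher and lower) and in limma-voom, with 0 higher and 25 lower at an unadjusted p below 0.05. Without ligand, Smad4 deletion itself raised 2 and lowered 2 (10.7% and 13.2% of all genes), with at most 1 raised and 0 lowered without any of its 4 libraries, and 2 and 4 or 2 and 0 under quantile normalization or median scaling.

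TGF-beta alone lowered 19 members and raised 2 in Smad4 flox/flox BMDMs (20.6% and 15.4% of all genes), so the share that fell (23.2%) was near that of all genes. Median scaling gave 9 lower and 3 higher, and leaving out a library gave 8 lower (either library without ligand), 26 (TGF-beta library 1) or 7 (TGF-beta library 2), with 0 to 2 higher. Atp5b had 517 and 416 TPM with TGF-beta and 628 and 636 TPM without (-0.45 ± 0.07, adjusted p = 0.00034). Of the TCA cycle 13 of 17 genes fell too. With Smad4 deleted limma called 0 higher and 0 lower (3.67% and 1.95% of all genes), with 0 and 5 unadjusted and 0 by limma-voom. The interaction of TGF-beta with genotype passed for 0 members in limma (2.80% and 3.72% of all genes) and in limma-voom, with 5 higher and 2 lower unadjusted, so a difference between genotypes was not shown.

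TGF-beta on top of DLL4 lowered 46 members and raised 1 (30.9% and 15.0% of all genes), with a median of -0.22 against -0.09. The number lower was 22 with median scaling, 24 or 27 without the DLL4 library 1 or 2, and 40 or 22 without the TGF-beta library 1 or 2. All genes of ATP synthase that passed fell (11 of 13), as did 18 of 36 subunits of complex I. Atp5b reached 379 and 348 TPM and Ndufaf2 7.59 and 6.22 TPM, against 14.2 and 11.8 TPM with DLL4 alone (-0.83 ± 0.12, adjusted p = 8.6e-05). Cox7a2l alone rose further, to 108 and 107 TPM (0.38 ± 0.09, adjusted p = 0.0025), the highest values of this table. Neutrophil markers summed to 4971 to 5169 TPM without ligand and 8200 to 8851 TPM with both in these cultures, and their part was not tested.

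**Figure D4:**
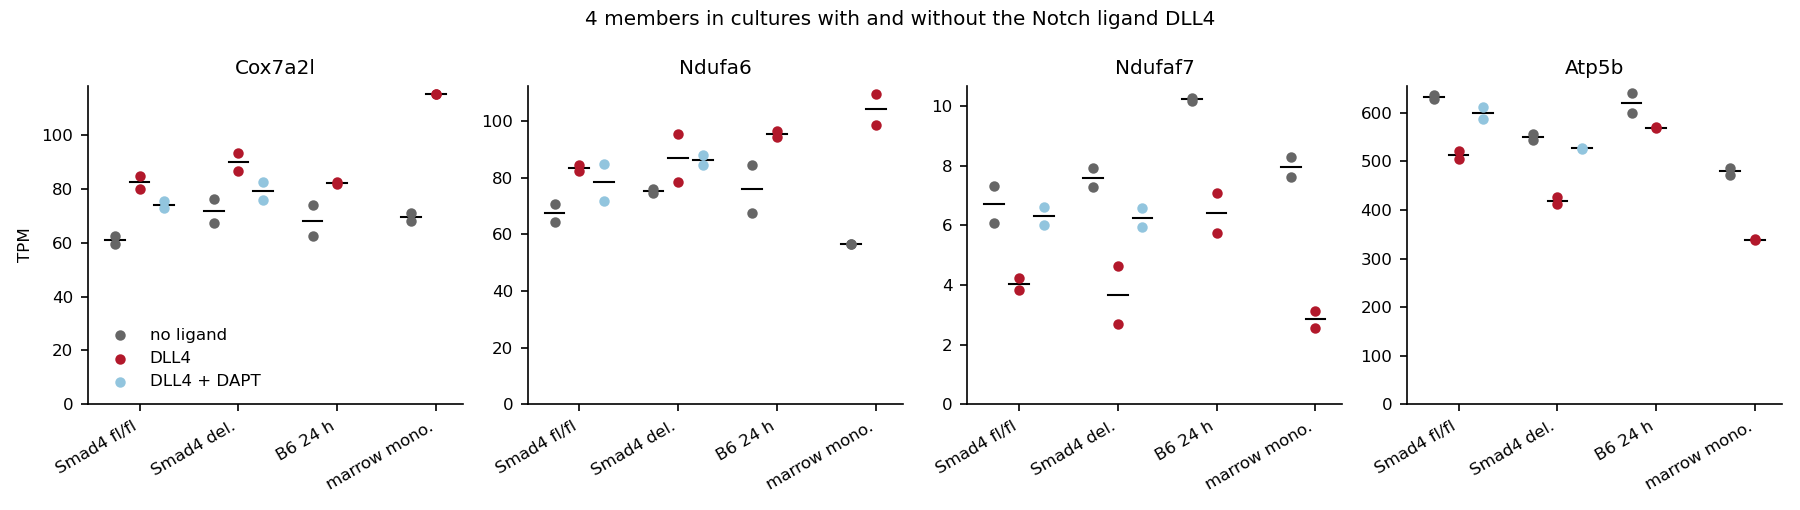
TPM of Cox7a2l, Ndufa6, Ndufaf7 and Atp5b in each library with and without DLL4, for Smad4 flox/flox BMDMs (also with DAPT), BMDMs with Smad4 deleted, C57BL/6J BMDMs at 24 h and bone marrow monocytes; each point is a library. Cox7a2l is higher and Ndufaf7 lower in every DLL4 library than in any library without ligand of the same culture.

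In C57BL/6J BMDMs after 24 h, DLL4 raised 5 members and lowered 6 (15.6% and 13.0% of all genes), a balance set by single libraries without ligand: 22 and 2 without library 2, and 1 and 9 without library 1. Without the DLL4 libraries 1 and 2 in turn the counts were 3 and 3, and 2 and 2. Ndufa6 had 96.6 and 94.3 TPM with DLL4 and 67.3 and 84.5 TPM without (0.34 ± 0.08, adjusted p = 0.0095), and Cox7a2l 81.8 and 82.6 TPM against 62.4 and 73.9 TPM (0.27 ± 0.07, adjusted p = 0.015). The groups do not overlap, but the calls were lost in 2 and 3 of the 4 fits without a library (adjusted p up to 0.11 and 0.18). Ndufaf7 had 5.74 and 7.09 TPM against 10.3 and 10.2 TPM (-0.60 ± 0.13, adjusted p = 0.0032). After 72 h, Ndufaf7 had 3.39 and 3.31 TPM against 5.55 and 4.45 TPM (-0.46 ± 0.13, adjusted p = 0.028), and it was the 1 member that fell while Cox5a and Sdha rose (10.3% and 5.13% of all genes higher and lower). Quantile normalization and median scaling left 0 higher and 1 lower. Without 1 library 0 rose and 0 or 1 fell, and the Ndufaf7 call was lost in 3 of these 4 fits (adjusted p up to 0.25). Cox7a2l at 72 h was at 78.5 and 73.5 TPM against 66.3 and 70.7 TPM (0.15 ± 0.07, adjusted p = 0.23).

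Most tested members were lower in the longer cultures. From 24 to 72 h without ligand 55 members fell and 1 rose, beside 45.0% and 19.2% of all genes. The median was -0.39 while all genes shifted by -0.21, and with median scaling 24 fell and 5 rose, with quantile normalization 36 and 5. Atp5b had 372 and 371 TPM at 72 h and 601 and 640.1 TPM at 24 h (-0.74 ± 0.04, adjusted p = 6.2e-09), Uqcrq 47.1 and 41.8 TPM against 69 and 85 TPM (-0.77 ± 0.11, adjusted p = 2.6e-05). Ndufa6 rose, from 67.3 and 84.5 to 99.3 and 98.5 TPM (0.39 ± 0.08, adjusted p = 0.0013). Time of treatment and days of culture changed together and cannot be told apart, and all 18 cell cycle genes fell as well.

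The sterol DMHCA, a ligand of the liver X receptors, raised 22 members and lowered 3 in C57BL/6J BMDMs after 24 h, beside 28.7% and 19.2% of all genes. Median scaling gave 8 and 5. The share raised (26.8%) was close to that of all genes, and the count depended on single libraries. Without 1 library the members' median log2 difference ran over 0.01 to 0.24, against 0.12 with all. Sdhb, the iron-sulfur subunit of succinate dehydrogenase, had 154 and 152.8 TPM with DMHCA and 105 and 119 TPM without (0.45 ± 0.06, adjusted p = 4.7e-05). Ndufs8 of complex I had 91.6 and 88.2 TPM against 52.5 and 67.2 TPM (0.59 ± 0.09, adjusted p = 0.00018), and Cox5b 116 and 114 TPM against 72.8 and 97 TPM (0.45 ± 0.12, adjusted p = 0.0066), a call lost in 1 of the 4 fits without a library. The groups do not overlap. The largest change was that of the muscle isoform Cox6a2, with 0.499 and 0.795 TPM against 5.56 and 8.05 TPM (-2.23 ± 0.26, adjusted p = 1.5e-05), at levels far under those of Cox6a1. Itgad, which overlaps it on the other strand, was at 0.208 and 0.088 against 0.317 and 0.254 TPM. All 10 neutrophil markers fell in these cultures, from a sum of 2263 to 2789 TPM to 308.1 to 322 TPM, and their part was not tested.

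On cultures that already held DLL4 and TGF-beta, DMHCA raised 1 member and lowered 1 after 24 h (9.21% and 8.43% of all genes) and raised 5 and lowered 7 after 72 h (10.3% and 23.2%). At 72 h the split turned to 11 and 4 with quantile normalization and to 5 and 3 with median scaling. Without 1 library the counts were 0 and 0 to 1 at 24 h. At 72 h they were 4 and 2 or 3 and 7 without the library 1 or 2 lacking DMHCA, and 9 and 2 or 2 and 7 without the DMHCA library 1 or 2. Cox6a2 with DMHCA was at 4.46 and 9.36 TPM at 24 h in this setting, against 5.32 and 5.88 TPM, and the groups overlap. TGF-beta added to DLL4 raised 1 and lowered 10 after 24 h (13.3% and 18.1% of all genes), with 4 and 6 lower without the DLL4 libraries 1 and 2, 3 and 6 without the TGF-beta libraries, 0 higher in each, and 4 lower with median scaling. Sdhc led the fall, with 124 and 131 TPM against 172 and 174 TPM (-0.44 ± 0.07, adjusted p = 0.00024). Cox7a2l was the 1 that rose, from 81.8 and 82.6 to 92.6 and 97.6 TPM (0.21 ± 0.07, adjusted p = 0.05), a call lost in all 4 fits without a library and under quantile normalization, median scaling, no filter and a pseudocount of 0.25. After 72 h TGF-beta raised 3 and lowered 9, where 27.1% of all genes rose and 11.5% fell and the median of all genes was 0.11. Median scaling gave 1 and 15, quantile normalization 5 and 14, and leaving out a library 1 and 2 or 0 and 5 (DLL4 libraries 1 and 2) and 1 and 10 or 4 and 5 (TGF-beta libraries 1 and 2). Cox7a2l is not among the 12, at 73 and 76.3 TPM.

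Blocking Notch in mice during refilling of the niche was read a day after toxin. LY411575 lowered 34 of 82 members and raised 1, beside 14.3% and 14.5% of all genes, with a median of -0.33 against -0.03 over all genes. The median was -0.31 to -0.37 under the other scalings. Leaving out control library 1 gave 12 lower and 0 higher, and control library 2 gave 18 and 1. The median was -0.43 for the 51 members of up to 1000 bases and -0.13 for the 31 longer ones, beside -0.28 and -0.01 over all short and long genes. Summed TPM were 8353 and 7830 in controls and 6378, 6643 and 6665 with LY411575, without overlap. Of complex IV 9 of 11 tested members fell, of complex I 13 of 36, of ATP synthase 5 and of complex III 4. Uqcr11 had 33, 25.8 and 31.1 TPM with LY411575 and 52.1 and 48.8 TPM in controls (-0.74 ± 0.14, adjusted p = 0.0026). Ndufa5 of complex I had 14.5, 24.4 and 11.5 TPM against 34.8 and 29.6 TPM (-0.96 ± 0.28, adjusted p = 0.023), and the testis isoform Cox6b2 1.54, 0.336 and 1.27 TPM against 7 and 6.62 TPM (-1.98 ± 0.34, adjusted p = 0.0012). All 3 genes separate treated from control libraries, but the Ndufa5 call was lost in 4 of the 5 fits without a library, with no filter (adjusted p = 0.056) and with the replicate block (adjusted p = 0.12). The 1 member that rose was Ndufaf7, with 6.54, 6.95 and 6.38 TPM against 3.12 and 3.97 TPM (0.75 ± 0.18, adjusted p = 0.0087), a call lost without control library 1 (adjusted p = 0.097) and with the replicate block (adjusted p = 0.083). With LY411575, Kupffer cell markers summed to 224 to 231 TPM against 951 to 977 TPM in controls, monocyte markers to 5981 to 6243 TPM against 3101 to 3190 TPM, and 48 of 69 genes of the cytosolic ribosome fell. The part of the mix of cells in the members' fall was not tested.

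Antibodies to DLL1 and DLL4 lowered 3 members and raised 0 (6.13% and 6.66% of all genes), with 0 higher and 12 lower at an unadjusted p below 0.05 and 0 and 5 by limma-voom. Ndufa6 had 73, 64.1, 65.7 and 75.2 TPM with antibodies and 91.9 and 107 TPM in controls (-0.51 ± 0.13, adjusted p = 0.022). Cox7a2l had 69, 70.6, 62.3 and 58.4 TPM against 87.1 and 92.7 TPM (-0.46 ± 0.09, adjusted p = 0.0052). Both are lower in all 4 treated libraries than in either control, and Cox6a1 was the third, at -0.26, a call lost in 3 of the 6 fits without a library, with no filter and with the replicate block (adjusted p up to 0.26). Leaving out control library 1 gave 16 lower, and leaving out control library 2 or treated library 3 gave 1. The median of -0.13 became -0.27 and 0.02 without control library 1 and 2. Ndufa6 lost its call in 3 of the 6 fits without a library (adjusted p up to 0.16), and with a block for the replicate number Ndufa6 and Cox7a2l reached an adjusted p of 0.10 and 0.096. The block used the numbers in the titles, which differ from those in the library names here, so it may join unrelated libraries. Ndufa6 fell with LY411575 as well (-0.54 ± 0.13, adjusted p = 0.01), a call lost in 2 of the 5 fits without a library, and Cox7a2l there was at 50.8, 45.6 and 48.7 TPM against 54.6 and 59.1 TPM (-0.23 ± 0.09, adjusted p = 0.083). The controls of the 2 experiments differ in Cox7a2l, at 54.6 and 59.1 against 87.1 and 92.7 TPM, and per the labels 1 experiment used female and the other male mice.

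In bone marrow monocytes DLL4 raised some members and lowered more. After 48 h 40 of 81 members fell and 14 rose, beside 39.2% and 33.4% of all genes, so the count lower (49.4%) stands above the background and the count higher below it. The median was -0.23 against -0.05 over all genes. Without 1 library 34 to 40 fell and 8 to 15 rose, with 8 without the no-ligand library 1 and 9 without the DLL4 library 2. Ndufa6 had 98.4 and 109.7 TPM with DLL4 and 56.6 and 56.6 TPM without (0.87 ± 0.07, adjusted p = 1.5e-06). Cox7a2l had 116 and 115 TPM against 68.1 and 71.1 TPM (0.72 ± 0.04, adjusted p = 3e-07), and Cox5a 251 and 264 TPM against 185 and 192 TPM (0.45 ± 0.05, adjusted p = 2.1e-05). For these 3 genes the groups stand well apart.

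Among the members that fell with DLL4 in these cells, Sdhc, a membrane subunit of succinate dehydrogenase, had 111 and 106.4 TPM against 188 and 185 TPM (-0.78 ± 0.04, adjusted p = 4.9e-08), and Ndufc1 of complex I 27.9 and 25 TPM against 54.1 and 49.6 TPM (-0.95 ± 0.10, adjusted p = 1.8e-05). Ndufaf7 had 3.14 and 2.56 TPM against 7.63 and 8.3 TPM (-1.22 ± 0.11, adjusted p = 5.5e-06). Every DLL4 library lies below both libraries without ligand for these genes. Of ATP synthase 10 of 13 members fell and 1 rose, and 4 assembly factors fell with 0 higher. In the same cells 58 of 71 genes of the cytosolic ribosome rose, all 18 cell cycle genes fell, and 13 of 14 glycolysis genes fell.

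TGF-beta on top of DLL4 lowered 29 members and raised 9 in bone marrow monocytes (35.1% and 16.4% of all genes), where all genes shifted by -0.10. With median scaling 13 fell and 14 rose, so no direction of the family holds over the scalings. Complex II fell in all 4 subunits, with Sdhb at 95 and 96.1 TPM against 139 and 142 TPM (-0.55 ± 0.06, adjusted p = 6.9e-05). Cox7a2l rose to 128 and 127 TPM (0.15 ± 0.04, adjusted p = 0.019), a call lost in all 4 fits without a library (adjusted p 0.058 to 0.079), and Ndufaf7 returned part of the way, to 5.93 and 5.2 TPM (0.77 ± 0.11, adjusted p = 0.0003). Without the TGF-beta library 2, 4 rose and 26 fell, and without the DLL4 library 2, 6 rose and 18 fell.

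Desmosterol, a precursor of cholesterol and ligand of the liver X receptors, raised 23 members and lowered 0 in bone marrow monocytes, beside 4.46% and 8.82% of all genes. The median was 0.18 against -0.04 over all genes, and 0.18 to 0.22 under the other scalings. Uqcrq had 53.2 and 59 TPM with desmosterol and 35.1 and 43.6 TPM without (0.51 ± 0.10, adjusted p = 0.014), Ndufaf8 17.5 and 18.1 TPM against 12.2 and 10.7 TPM (0.59 ± 0.13, adjusted p = 0.023), and Ndufb7 91 and 94.7 TPM against 56 and 76.4 TPM (0.50 ± 0.12, adjusted p = 0.03). The treated libraries are above both untreated ones for each, but over the 4 fits without a library the call was lost in 2 for Uqcrq, 4 for Ndufaf8 and 3 for Ndufb7 (adjusted p up to 0.16), and with no filter for Ndufaf8 and Ndufb7 (adjusted p = 0.068 and 0.092). The median was 0.24 for members of up to 1000 bases and 0.06 for longer ones, beside 0.16 and -0.05 over all genes. Summed TPM were 8520 and 8819 with desmosterol and 7382 and 7888 without. The count depends on the fit, with 46 by limma-voom, 30 with median scaling, 10 without the filter on low levels, and 5 or 2 without the no-ligand library 1 or the desmosterol library 2. Of the cytosolic ribosome 36 of 71 genes rose and 1 fell. On cultures with DLL4 and TGF-beta, desmosterol raised 0 members and lowered 1 by limma (2.16% and 5.76% of all genes), Atp5b at -0.13, with 1 and 0 under median scaling, 4 and 0 by limma-voom and 0 and 0 in every fit without a library.

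Neither sterol was given at the same time and to the same cells as the other, so DMHCA and desmosterol are not compared. For neither sterol was the response with DLL4 and TGF-beta present tested against that in their absence.

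**Figure D5:**
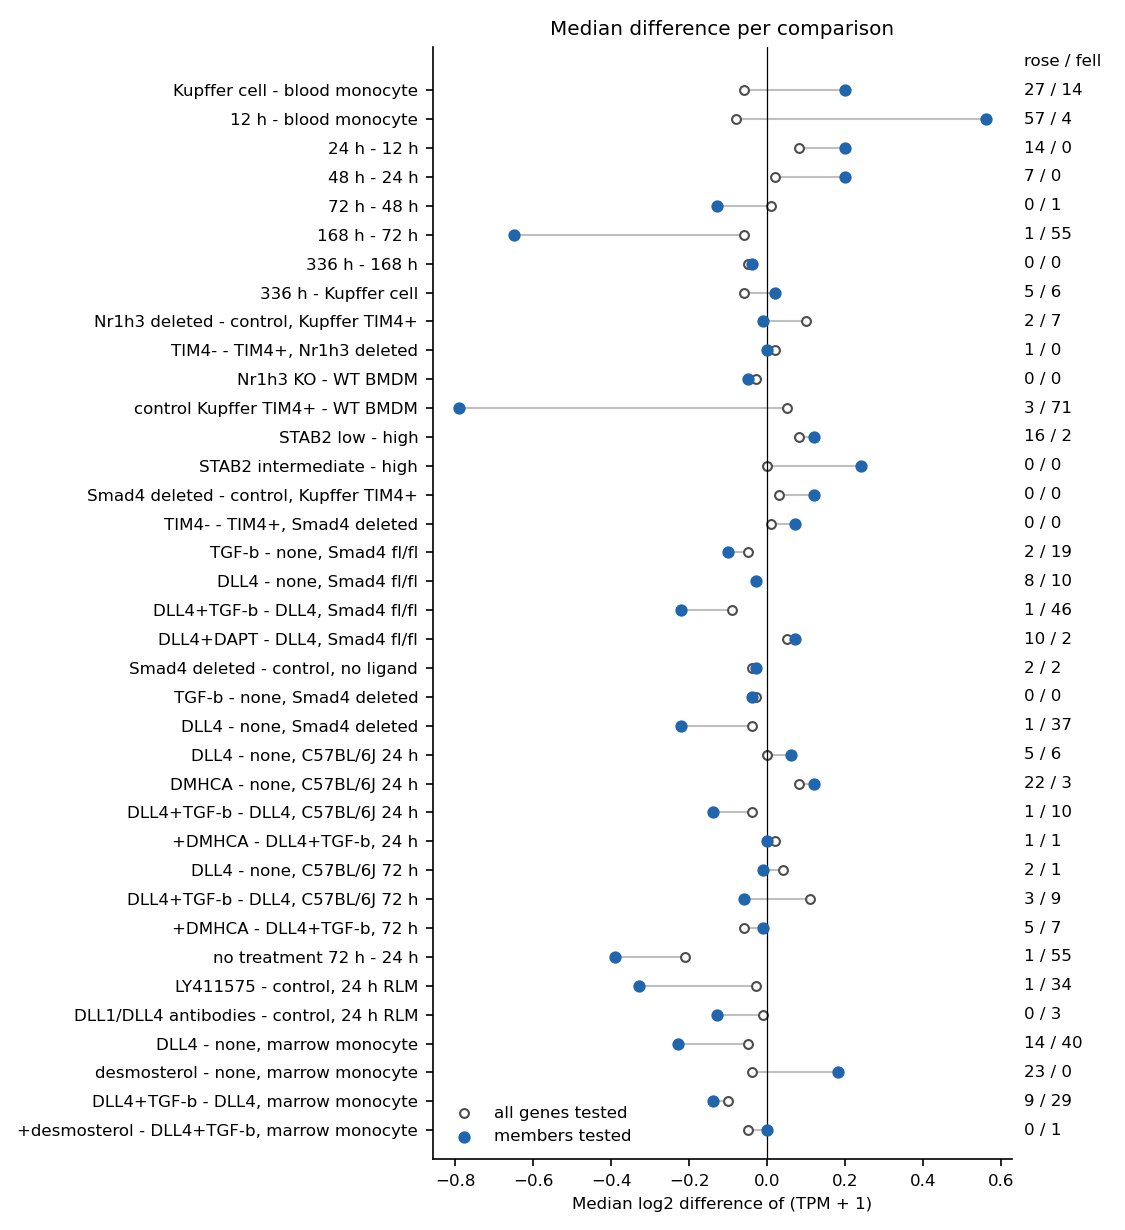
Median log2 difference over the tested members and over all tested genes in each of 37 comparisons, with the numbers of members that rose and fell; the horizontal axis is log2(TPM + 1) difference. The members' median is farthest from that of all genes for Kupffer cells minus BMDMs (-0.79 against 0.05), 12 h minus monocytes (0.56 against -0.08) and 168 h minus 72 h (-0.65 against -0.06).

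Across the DLL4 comparisons, which use separate libraries, Cox7a2l rose in 4 of 5 (both BMDM genotypes of the Smad4 series, C57BL/6J BMDMs at 24 h and bone marrow monocytes) and Ndufaf7 fell in all 5. Cox5a also rose in 4 of 5, by 0.29 in Smad4 flox/flox BMDMs and by 0.45 in bone marrow monocytes. In C57BL/6J BMDMs it rose by 0.29 at 24 h and by 0.19 at 72 h. The 72 h call of Cox5a was lost with quantile normalization, median scaling and limma-voom (adjusted p 0.11 to 0.17). It was also lost in every fit without a library. These genes were singled out after their values were seen. Without a library the Cox7a2l call was lost in some fits in the Smad4-deleted and the C57BL/6J BMDMs, and the Ndufaf7 call in the Smad4 flox/flox BMDMs and in C57BL/6J BMDMs at 72 h. In niche macrophages Cox7a2l and Ndufaf7 stood low together at 12 h against monocytes, which is a pattern of another kind. Cox7a2l then came back to 127 and 116 TPM by 72 h while Ndufaf7 stayed at 4.82 and 3.75 TPM.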

How the data were processed

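RNA was sequenced from poly(A)-selected, dUTP strand-marked libraries, per the labels' protocols. The deposited values are TPM, which the authors made with STAR and HOMER on mm10, per the submitters' processing notes; their versions are not given in the labels. Per the file headers of the STAB2 table, exon reads were summed per gene with no strand option. Reads were recovered from the TPM and were whole (tolerance 0.1, for values of at most 20 reads) in all 104 libraries; limma-voom on them was the count-based alternative.

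Genes with at least 4 TPM in at least 2 libraries were tested on log2(TPM + 1) with limma 3.58.1 in R 4.3.3, with group means as coefficients of a single model for each table, and p-values were adjusted by Benjamini-Hochberg over all genes tested. A fold on this scale understates the change of low genes. The alternatives were a pseudocount of 0.25, no filter, quantile normalization, median scaling, a replicate block, leaving out each library, and limma-voom. Tested on simulated data in 8 comparisons, 27% to 80% of the 1.5-fold changes were recovered, and 94% to 100% of those of 3-fold. The simulated spread was set by a dispersion of 0.01, so these shares do not hold where libraries vary more. Other tables used Python 3.11.15.

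Members and lists were chosen with earlier results of these data known. Members were named by the size of their change (up to 4 per direction and comparison, at 10 TPM or more), as paralogs with tissue-restricted partners, as complex II members, Cycs or Cyc1, or as extremes in level; others, among them Ndufaf7 below 10 TPM, were named after their values were seen. Library labels conflicted in places, and titles were followed: treatment hours of the 72 h BMDMs, drug labels on controls of the Notch experiments, and the Cre line of Smad4-deleted BMDMs (Clec4f-cre in labels, LysM-cre in the series' design). Replicate numbers of the DLL antibody libraries also differed between titles and library names, and the title numbers set the replicate block. Nothing in the labels says that replicates are separate animals or cultures, so the spread behind each p-value may be technical. Mitochondrially encoded subunits were not analysed here.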

Additional observations from a re-analysis of the deposited data

Results flagged for a closer look

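The responses to LY411575 and to antibodies against DLL1 and DLL4 differed for 4 of 82 members by limma's interaction test with Benjamini-Hochberg adjustment, where 6.24% of all genes differed in that direction and 7.25% in the other, in which 0 members did. For each the log2 difference with LY411575 was the lower. Cox6b2, the testis isoform of complex IV, differed by -1.93 ± 0.46, adjusted p = 0.021. For Ndufaf8, an assembly factor of complex I, the responses differed by -0.81 ± 0.18, adjusted p = 0.014. For Uqcr11 of complex III the value was -0.74 ± 0.20, adjusted p = 0.031, and for Ndufv3 of complex I it was -0.70 ± 0.18, adjusted p = 0.029. Only the Cox6b2 difference passed under each alternative run, a fit without a library not being among them. The Ndufaf8 call was lost with the replicate block and with limma-voom (adjusted p = 0.15 and 0.13), the Uqcr11 call with no filter and with limma-voom (0.063 and 0.099), and the Ndufv3 call with no filter and with the replicate block (0.056 and 0.16), which left 2 of the 4 in each of these fits. Per the labels the experiments differed in the sex of the mice and in their control libraries, and agent and experiment cannot be told apart.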

How the results depend on the processing

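The members' direction at 12 h and 168 h after toxin and in Kupffer cells against BMDMs held under each alternative run, while many other counts moved by more than 1.5 times, as given here. Named members kept their direction and side of the threshold 489 times without a library and were no longer called 213 times; with limma-voom these were 139 and 17. Samples were taken as paired only where every same-numbered pair correlated over 0.1 in its deviations from the group means, and no table met this, with medians of 0.007 to 0.136. In the STAB2 table, where both numbers recur in all 3 sorts, 4 of 6 pairs did (0.057 to 0.137), and the block gave 17 higher and 2 lower there. The niche table shares no numbers and the Smad4 Kupffer cell table shares 1, so neither was fitted with a block. No interaction was refitted without a library. TPM cannot show a shift of total RNA, and shared exons limit genes named in the text. Where an alternative moved a value, the cause was not tested. limma-voom set the number higher at 0 (labelled Nr1h3-deleted Kupffer cells), 0 (their TIM4- against TIM4+), 0 (DMHCA on both 24 h), 1 (DLL4 72 h), 1 (TGF-beta on DLL4 72 h), 46 (desmosterol) and 4 (desmosterol on both). limma-voom set the number lower at 3 (72 against 48 h), 4 (labelled Nr1h3-deleted Kupffer cells), 1 (STAB2 low against high), 1 (Smad4-deleted BMDMs), 2 (DMHCA on both 24 h), 1 (DMHCA on both 72 h), 5 (DLL antibodies), 2 (LY411575 against antibodies) and 0 (desmosterol on both). limma-voom set the median log2 difference at -0.19 (72 against 48 h), -0.01 (DLL4 (Smad4 flox/flox)), -0.01 (Smad4-deleted BMDMs), -0.03 (TGF-beta (Smad4 deleted)), -0.04 (DLL4 72 h) and 0.05 (DMHCA on both 72 h). Median scaling set the number higher at 6 (24 against 12 h), 3 (48 against 24 h), 12 (336 h against Kupffer cells), 1 (labelled Nr1h3-deleted Kupffer cells), 6 (DAPT), 2 (DLL4 (Smad4 deleted)), 8 (DMHCA 24 h), 0 (TGF-beta on DLL4 24 h) and 0 (DLL4 72 h). With this setting it was also 1 (TGF-beta on DLL4 72 h), 5 (72 against 24 h of culture), 14 (TGF-beta on DLL4 in monocytes) and 1 (desmosterol on both). Median scaling set the number lower at 12 (labelled Nr1h3-deleted Kupffer cells), 9 (TGF-beta), 22 (TGF-beta on DLL4 (Smad4 flox/flox)), 0 (Smad4-deleted BMDMs), 5 (DMHCA 24 h), 4 (TGF-beta on DLL4 24 h), 2 (DMHCA on both 24 h), 15 (TGF-beta on DLL4 72 h) and 3 (DMHCA on both 72 h). With this setting it was also 24 (72 against 24 h of culture), 13 (TGF-beta on DLL4 in monocytes) and 0 (desmosterol on both). Median scaling set the median log2 difference at -0.01 (Nr1h3 KO BMDMs), -0.01 (DLL4 (Smad4 flox/flox)), -0.13 (TGF-beta on DLL4 (Smad4 flox/flox)), 0.03 (DAPT), -0.00 (Smad4-deleted BMDMs), -0.02 (TGF-beta (Smad4 deleted)), -0.11 (TGF-beta on DLL4 24 h), -0.06 (DLL4 72 h) and -0.16 (TGF-beta on DLL4 72 h). With this setting it was also 0.03 (DMHCA on both 72 h), -0.15 (72 against 24 h of culture), -0.01 (TGF-beta on DLL4 in monocytes) and 0.06 (desmosterol on both). No filter on low levels set the number higher at 0 (their TIM4- against TIM4+), 1 (TGF-beta), 6 (DAPT), 1 (Smad4-deleted BMDMs), 14 (DMHCA 24 h), 0 (TGF-beta on DLL4 24 h), 0 (DMHCA on both 24 h), 1 (TGF-beta on DLL4 72 h) and 10 (desmosterol). No filter on low levels set the number lower at 1 (24 against 12 h), 4 (labelled Nr1h3-deleted Kupffer cells), 0 (STAB2 low against high), 1 (DAPT), 0 (Smad4-deleted BMDMs), 3 (DLL4 24 h), 4 (TGF-beta on DLL4 24 h), 0 (DLL4 72 h) and 4 (DMHCA on both 72 h). With this setting it was also 2 (LY411575 against antibodies) and 0 (desmosterol on both). No filter on low levels set the median log2 difference at -0.01 (DLL4 (Smad4 flox/flox)) and -0.02 (Smad4-deleted BMDMs). A pseudocount of 0.25 set the number higher at 0 (TGF-beta on DLL4 24 h) and 0 (DMHCA on both 24 h). A pseudocount of 0.25 set the number lower at 1 (Smad4-deleted BMDMs). Quantile normalization set the number higher at 2 (168 against 72 h), 12 (336 h against Kupffer cells), 0 (labelled Nr1h3-deleted Kupffer cells), 9 (STAB2 low against high), 0 (TGF-beta on DLL4 24 h), 0 (DMHCA on both 24 h), 0 (DLL4 72 h), 5 (TGF-beta on DLL4 72 h) and 11 (DMHCA on both 72 h). With this setting it was also 5 (72 against 24 h of culture). Quantile normalization set the number lower at 2 (72 against 48 h), 11 (TGF-beta), 4 (Smad4-deleted BMDMs), 5 (DMHCA 24 h), 2 (DMHCA on both 24 h), 14 (TGF-beta on DLL4 72 h), 4 (DMHCA on both 72 h), 36 (72 against 24 h of culture) and 0 (desmosterol on both). Quantile normalization set the median log2 difference at 0.15 (48 against 24 h), 0.08 (336 h against Kupffer cells), -0.02 (DLL4 (Smad4 flox/flox)), -0.01 (Smad4-deleted BMDMs), -0.06 (DLL4 72 h), -0.10 (TGF-beta on DLL4 72 h), 0.04 (DMHCA on both 72 h) and -0.21 (72 against 24 h of culture). A block for the replicate number set the number higher at 0 (LY411575) and 2 (desmosterol on both). A block for the replicate number set the number lower at 1 (DAPT), 0 (DLL antibodies) and 2 (LY411575 against antibodies). Without 1 library the number higher ran over 4 to 18 (24 against 12 h), 1 to 7 (48 against 24 h), 0 to 1 (168 against 72 h), 3 to 6 (336 h against Kupffer cells), 0 to 3 (labelled Nr1h3-deleted Kupffer cells), 0 to 1 (their TIM4- against TIM4+), 3 to 17 (STAB2 low against high), 0 to 1 (STAB2 intermediate against high) and 0 to 2 (TGF-beta). Other ranges were 3 to 7 (DLL4 (Smad4 flox/flox)), 1 to 4 (DAPT), 0 to 1 (Smad4-deleted BMDMs), 0 to 1 (DLL4 (Smad4 deleted)), 1 to 22 (DLL4 24 h), 7 to 36 (DMHCA 24 h), 0 (TGF-beta on DLL4 24 h), 0 (DMHCA on both 24 h) and 0 (DLL4 72 h). Without 1 library the number higher ran over 0 to 4 (TGF-beta on DLL4 72 h), 2 to 9 (DMHCA on both 72 h), 1 to 5 (72 against 24 h of culture), 0 to 1 (LY411575), 8 to 15 (DLL4 in monocytes), 2 to 23 (desmosterol) and 4 to 6 (TGF-beta on DLL4 in monocytes). Without 1 library the number lower ran over 0 (72 against 48 h), 3 to 8 (336 h against Kupffer cells), 2 to 6 (labelled Nr1h3-deleted Kupffer cells), 0 to 1 (their TIM4- against TIM4+), 0 to 1 (STAB2 low against high), 7 to 26 (TGF-beta), 5 (DLL4 (Smad4 flox/flox)), 22 to 40 (TGF-beta on DLL4 (Smad4 flox/flox)) and 1 to 2 (DAPT). Other ranges were 0 (Smad4-deleted BMDMs), 17 to 42 (DLL4 (Smad4 deleted)), 2 to 9 (DLL4 24 h), 1 to 7 (DMHCA 24 h), 3 to 6 (TGF-beta on DLL4 24 h), 0 to 1 (DMHCA on both 24 h), 0 to 1 (DLL4 72 h), 2 to 10 (TGF-beta on DLL4 72 h) and 2 to 7 (DMHCA on both 72 h). Without 1 library the number lower ran over 12 to 31 (LY411575), 1 to 16 (DLL antibodies), 18 to 26 (TGF-beta on DLL4 in monocytes) and 0 (desmosterol on both). Medians are given where they moved by more than the spread between libraries, and without a library also where they moved by over 1.5 times or turned sign. Without 1 library the median ran over 0.15 to 0.26 (48 against 24 h), 0.01 to 0.08 (336 h against Kupffer cells), -0.04 to 0.05 (their TIM4- against TIM4+), -0.01 to 0.29 (STAB2 low against high), 0.13 to 0.37 (STAB2 intermediate against high), -0.04 to -0.01 (DLL4 (Smad4 flox/flox)), -0.04 to -0.01 (Smad4-deleted BMDMs), -0.05 to -0.02 (TGF-beta (Smad4 deleted)) and -0.09 to 0.14 (DLL4 24 h). Other ranges were -0.03 to 0.01 (DLL4 72 h), -0.08 to -0.00 (TGF-beta on DLL4 72 h), -0.06 to 0.03 (DMHCA on both 72 h) and -0.26 to -0.13 (DLL4 in monocytes). Further ranges were 0.08 to 0.25 (Kupffer cells against monocytes), -0.13 to -0.08 (72 against 48 h), -0.07 to 0.04 (labelled Nr1h3-deleted Kupffer cells), -0.04 to 0.27 (Smad4-deleted Kupffer cells), -0.08 to 0.21 (their TIM4- against TIM4+), -0.15 to -0.05 (TGF-beta), 0.01 to 0.24 (DMHCA 24 h), -0.04 to 0.05 (DMHCA on both 24 h), -0.27 to 0.02 (DLL antibodies) and 0.00 to 0.02 (desmosterol on both).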

Other observations

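Lists of mitochondrial and metabolic genes outside the chain gave these counts with limma. Against blood monocytes, 12 of 18 tested genes of fatty acid oxidation were higher in Kupffer cells and 0 lower, while of 16 regulators of mitochondrial biogenesis 3 were higher and 9 lower, beside 34.0% and 38.5% of all genes. At 12 h after toxin 36 of 76 genes of the mitochondrial ribosome rose and 3 fell, beside 26.9% and 35.5% of all genes. With DLL4 in bone marrow monocytes, of the TCA cycle 10 of 17 genes fell and 4 rose, beside 39.2% and 33.4% of all genes. With LY411575, 8 of 14 glycolysis genes rose and 1 fell, and of the TCA cycle 1 of 17 rose and 1 fell, beside 14.5% and 14.3% of all genes.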
